A study of Mus musculus with 4 samples.

Results

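Desmosomes are the spot-like junctions that rivet epithelial cells together. The genes described here are 9 desmosome and plakin genes: Evpl, Ppl and Dsp (the plakins envoplakin, periplakin and desmoplakin), Dsg2 and Dsc2 (the desmosomal cadherins desmoglein 2 and desmocollin 2), Pkp1, Pkp2 and Pkp3 (plakophilins 1 to 3) and Jup (plakoglobin). They were chosen by name, as all spots other than control spots whose gene name in the files was one of these, and every probe was kept. The 9 names were picked with earlier results of these data known. This gave 20 probes of 41174 on the array, for 9 genes of 27670 gene names. Dsg2 had 5 probes, Dsp 4, Dsc2 3, Evpl and Ppl 2 each, and Pkp1, Pkp2, Pkp3 and Jup 1 each.

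Total RNA was measured in 4T1-S and 4T1-A, sub-lines of the cultured BALB/c mouse mammary carcinoma line 4T1. The series title calls 4T1-S strongly immunogenic, and the comparison asks which transcripts set it apart from 4T1-A. No treatment, time point or genetic change is given for either sub-line, and neither the way the sub-lines were derived nor whether either is 1 clone is given in the labels. There were 2 one-colour arrays of 4T1-S and 2 of 4T1-A. Whether the arrays of either sub-line stand for separate cultures is not given in the labels, and the p-values therefore speak only to variation among these 4 arrays, which may be technical.

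In a desmosome, desmogleins and desmocollins reach across the gap between neighbouring cells and bind each other. Inside the cell their tails are held by the armadillo proteins plakoglobin and the plakophilins, and desmoplakin ties this plaque to keratin filaments. Envoplakin and periplakin are related plakins that bind each other and are best known from the cornified envelope, the protein shell that stratified epithelia such as epidermis build under the plasma membrane. Simple epithelia rely chiefly on desmoglein 2 and desmocollin 2.

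The share of spots well above background was 59.2 and 58.2 percent on the 4T1-S arrays and 54.9 and 56.3 percent on the 4T1-A arrays. All levels below are scaled intensities, that is the processed intensity of a spot divided by its array's 75th percentile, which was 405 and 498 in 4T1-S and 467.5 and 577 in 4T1-A. A level of 1 therefore equals the 75th percentile, and levels of different probes are not comparable with each other. Within a sub-line, replicate arrays correlated at r = 0.991 across probes, which are not independent replicates, and their log2 difference had an SD of 0.38 in 4T1-S and 0.39 in 4T1-A. The 4 arrays lay on 1 slide with each sub-line at its own positions, so slide position and sub-line cannot be told apart. Of the defining markers of mammary epithelial cells that were checked, 6 of 6 were well above background on every array, with a summed scaled intensity of 306 and 251 in 4T1-S and 314 and 329 in 4T1-A. Krt8, Krt18 and Krt7 make up most of that sum, and the markers are given singly further on.

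Differences are log2 values of 4T1-S minus 4T1-A with their standard error (SE) or 95% interval, from a limma fit over the 23669 probes that were well above background on both 4T1-S arrays, on both 4T1-A arrays or on all of them. Adjusted p-values are Benjamini-Hochberg values over all of those probes, and a probe passed below 0.05. The median difference over all of them was 0.11.

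The promoters are shown because transcription factors and repressors of epithelial junction genes were also read on these arrays. RefSeq promoter entries of mouse assembly GRCm38.p6 were at hand for 2 of the 9 genes, Dsp and Jup. The 250 bases before each annotated start follow, 5′ to 3′ on the gene's own strand, with the motif GGGCGG, which Sp and Klf factors can bind, in capitals on either strand (CCGCCC where it lies on the other one). The Dsp window is chr13:38151044-38151293 on the plus strand, and the Jup window is chr11:100397791-100398040 on the minus strand.
Dsp: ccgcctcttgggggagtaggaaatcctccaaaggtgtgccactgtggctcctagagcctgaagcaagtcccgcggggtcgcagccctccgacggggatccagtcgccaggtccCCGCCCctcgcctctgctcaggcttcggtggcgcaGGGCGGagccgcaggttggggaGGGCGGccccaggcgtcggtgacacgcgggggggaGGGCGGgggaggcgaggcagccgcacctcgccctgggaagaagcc
Jup: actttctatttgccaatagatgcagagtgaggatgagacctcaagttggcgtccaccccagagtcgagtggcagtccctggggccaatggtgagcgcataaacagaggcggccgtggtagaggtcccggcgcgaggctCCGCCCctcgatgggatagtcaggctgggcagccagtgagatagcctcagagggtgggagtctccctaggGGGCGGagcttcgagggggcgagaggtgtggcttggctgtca

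The Dsp window was 72.4 percent G and C and the Jup window 62.0 percent, against a median of 52.4 percent over 32851 promoter windows of this length. GGGCGG occurred 4 times before Dsp, with its first bases 137, 102, 80 and 45 bases before the start, and 2 times before Jup, 112 and 42 bases before it; 32.7 percent of all promoter windows held it at least once. Other motifs were searched on both strands. The Grainyhead-like motif AACNGGTT, which 1.79 percent of windows held, occurred in neither. The E-box CAGGTG, which Zeb and Snail repressors can bind and which 17.2 percent of windows held, occurred in neither, and the AP-1 motif TGANTCA, held by 6.75 percent of windows, occurred in neither. A match is a stretch of letters and not a bound site, and a missing one says only that those letters are not in the window.

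Among the plakins, Evpl fell in 4T1-S. Its brighter probe, A_51_P324838, had scaled intensities of 0.0730 and 0.138 in 4T1-S, against 1.57 and 2.32 in 4T1-A, and was well above background on all 4 arrays. Both 4T1-S arrays were far below both 4T1-A arrays, and the gap between the sub-lines was larger than the gap between replicates, which was 0.92 on the log2 scale in 4T1-S and 0.56 in 4T1-A. The difference was -4.25 ± 0.33 (SE, n = 2 each), 19.0-fold lower in 4T1-S, with a 95% interval of -5.03 to -3.47 and an adjusted p of 0.000480 by limma. Its rank was 32 from the lowest difference among the 23669 probes. It passed under each of the 13 alternative settings, with differences between -4.71 and -2.86 and a highest adjusted p of 0.0326. The 4T1-S levels were not far above the lowest signals well above background on those arrays, 0.0596 and 0.0550. The size of the difference varied with the background correction and was -2.86 with normexp. In bulk RNA such as this, fewer cells that express a gene and less of its RNA per cell cannot be told apart.

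The other Evpl probe, A_51_P324834, gave a smaller difference. It had 0.119 and 0.0808 in 4T1-S, against 0.139 and 0.193 in 4T1-A. The sub-lines did not overlap, and 4T1-S was again the lower one. The difference was -0.74 with a 95% interval of -1.36 to -0.12, and it did not pass (limma, adjusted p = 0.142). The files link the brighter probe to a complementary DNA clone of the gene and the dimmer one to its RefSeq transcript. Where in the transcript each probe binds was not analysed here, and why the probes differ was not tested.

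Ppl, the binding partner of envoplakin, was on the edge of the threshold. Its probe A_51_P164835 had 1.39 and 1.89 in 4T1-S, against 3.21 and 5.92 in 4T1-A. Both 4T1-S arrays were below both 4T1-A arrays, although the 4T1-A arrays themselves differed by 0.88 on the log2 scale. The difference was -1.43 ± 0.32 (SE, n = 2 each), 2.69-fold lower in 4T1-S, with a 95% interval of -2.16 to -0.69. It narrowly missed the threshold by limma (adjusted p = 0.0501). It passed under 6 of the 13 alternatives: scaling to the array median (0.0305), 1 probe per gene (0.0368), an intensity trend with robust fitting (0.0425), the deposited table (0.0487), the replicate number as a block (0.00259) and leaving out 4T1-A replicate 1 (1.19e-04, difference -1.87). It did not pass under the other 7, where the adjusted p reached 0.179 (without 4T1-S replicate 1, difference -1.21). The other Ppl probe, A_52_P576222, had 0.0175 and 0.0130 in 4T1-S, against 0.0894 and 0.0259 in 4T1-A. It was well above background on 1 array of 4T1-A only and was not tested.

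Dsp, the plakin that anchors keratin filaments at the desmosome, was measured by 4 probes that fell into brighter and dimmer pairs. The brightest, A_51_P101460, had 4.52 and 6.15 in 4T1-S, against 7.74 and 10.5 in 4T1-A, a difference of -0.78 ± 0.25 (SE, n = 2 each; limma, adjusted p = 0.114). The next, A_52_P242544, had 1.74 and 2.27 in 4T1-S, against 2.55 and 3.69 in 4T1-A, a difference of -0.63 ± 0.25 (adjusted p = 0.176). On both probes the 4T1-S arrays lay below the 4T1-A arrays without overlap, and neither difference passed. Among the alternatives they passed only with the replicate number as a block (limma, adjusted p = 0.0179 and 0.0340). Both are linked in the files to the same complementary DNA, so they share a target.

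The dimmer Dsp pair is linked to another accession. A_52_P549815 had 0.136 and 0.116 in 4T1-S, against 0.121 and 0.120 in 4T1-A, and the sub-lines overlapped. Its difference was 0.06 with a 95% interval of -0.40 to 0.51 (limma, adjusted p = 0.885), and its sign turned to -0.23 with scaling to the array median and to -0.12 with quantile normalization. A_51_P201884 had 0.0789 and 0.0536 in 4T1-S, against 0.0539 and 0.0535 in 4T1-A. It was well above background on 1 array of 4T1-S only and was not tested. The intervals of the brighter pair therefore lay below 0, while that of the tested dimmer probe included it.

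**Figure D1:**
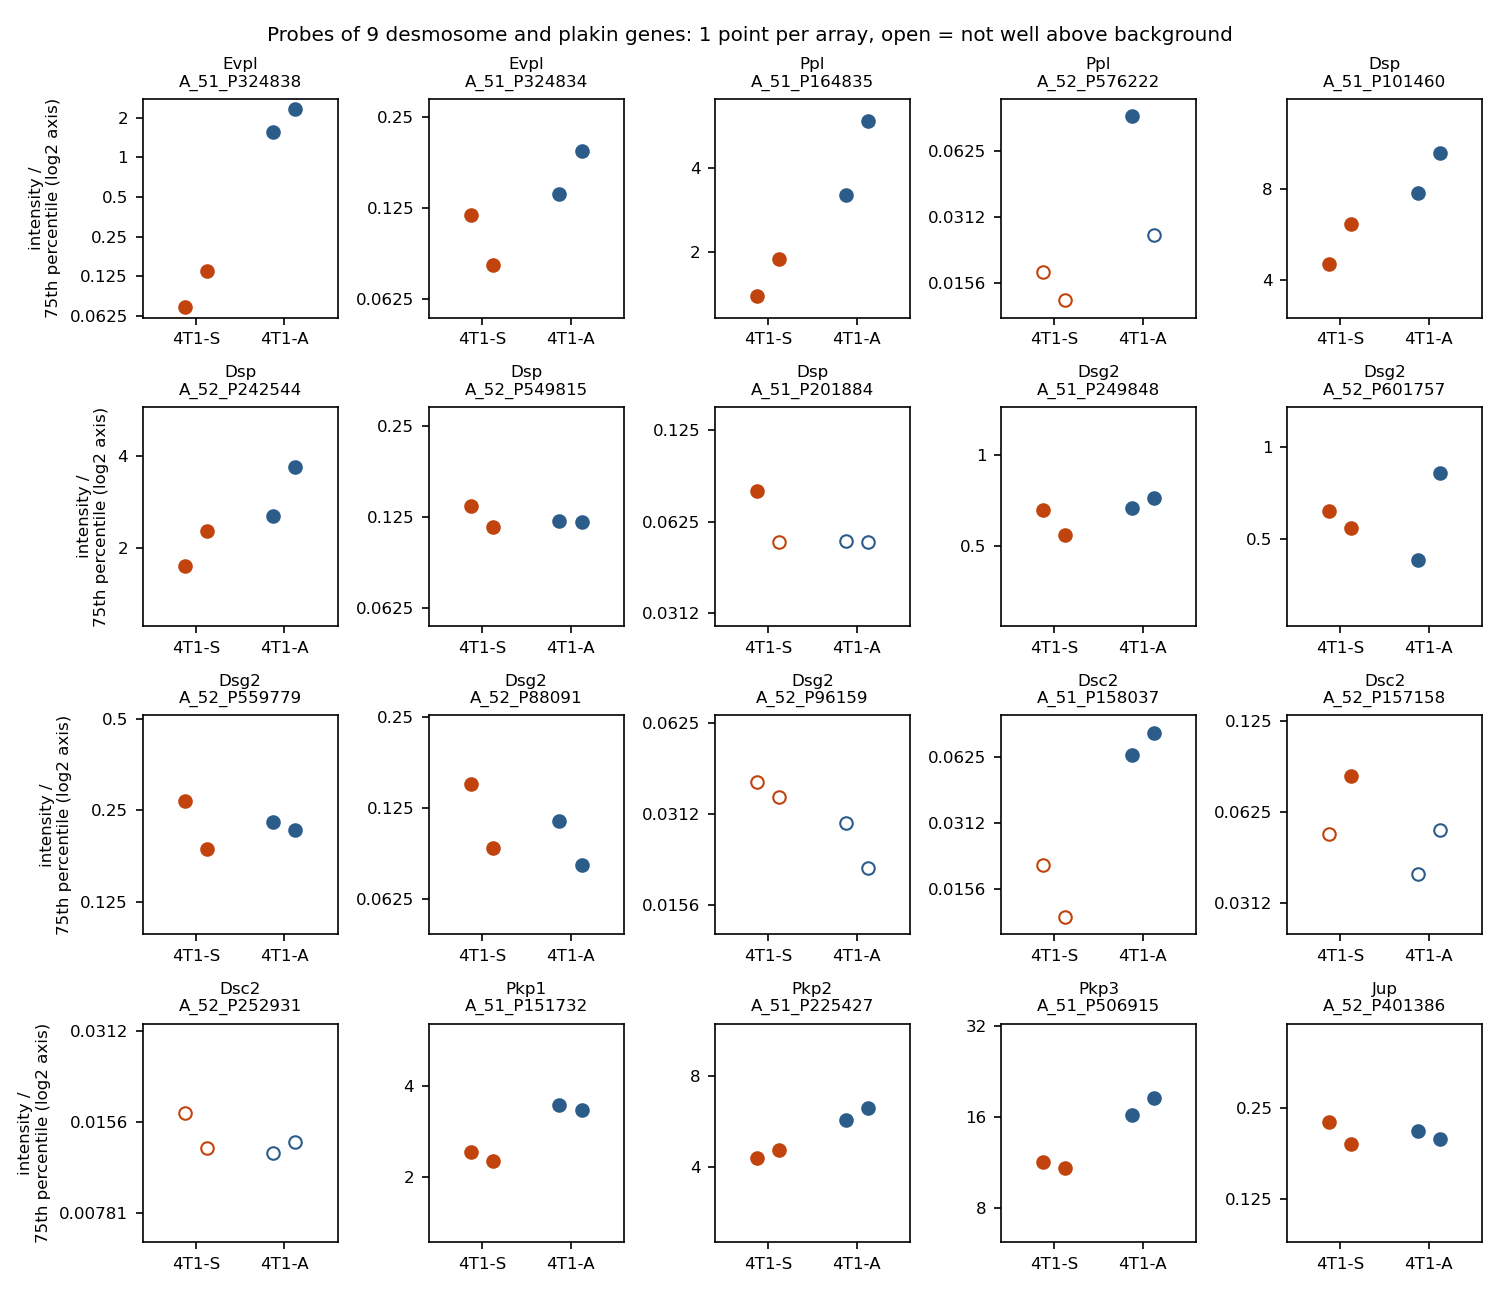
Scaled intensity (processed intensity over the array's 75th percentile, log2 axis) of every probe of the 9 genes, with 1 panel per probe and its own axis range; 4T1-S arrays are at the left and 4T1-A arrays at the right of each panel, filled points are well above background and open points are not. Evpl probe A_51_P324838 shows the widest gap, with 0.0730 and 0.138 in 4T1-S and 1.57 and 2.32 in 4T1-A, and Jup and most Dsg2 panels show sub-lines that overlap.

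The desmosomal cadherins gave 1 call among 5 tested probes, against 4.58 percent of all tested probes called in either direction. Of the 5, 4 were probes of Dsg2, and the called Dsc2 probe entered the test only through 4T1-A. Dsg2, the desmoglein found in all desmosome-bearing tissues, showed no difference past the threshold on any of its 4 tested probes. Its brightest probe, A_51_P249848, had 0.657 and 0.542 in 4T1-S, against 0.667 and 0.721 in 4T1-A. The 4T1-S arrays were slightly lower with no overlap, and the difference was -0.22 with a 95% interval of -0.69 to 0.25 (limma, adjusted p = 0.537).

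On A_52_P601757 the levels were 0.615 and 0.542 in 4T1-S, against 0.426 and 0.821 in 4T1-A. The 4T1-A arrays lay on either side of the 4T1-S arrays, and the difference was -0.03 with a 95% interval of -0.76 to 0.69 (limma, adjusted p = 0.960). A_52_P559779 had 0.268 and 0.187 in 4T1-S, against 0.229 and 0.216 in 4T1-A, a difference of 0.01 with a 95% interval of -0.53 to 0.55 (adjusted p = 0.980). A_52_P88091 had 0.149 and 0.0923 in 4T1-S, against 0.113 and 0.0809 in 4T1-A, a difference of 0.30 with a 95% interval of -0.37 to 0.97 (adjusted p = 0.554). The sub-lines overlapped on all 3 of these probes. With scaling to the array median the difference of A_52_P559779 was -0.28, so its sign rests on the scaling. The fifth, A_52_P96159, had 0.0399 and 0.0355 in 4T1-S, against 0.0291 and 0.0208 in 4T1-A, was well above background on none of the arrays and was not tested. These intervals do not show that the sub-lines are alike.

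Dsc2, the desmocollin that pairs with desmoglein 2, was dim in both sub-lines, and 1 of its 3 probes fell. A_51_P158037 had 0.0200 and 0.0117 in 4T1-S, against 0.0640 and 0.0806 in 4T1-A. It was well above background on both 4T1-A arrays and on neither 4T1-S array, so only a bound can be given: 4T1-S was lower by at least 1.25-fold (limma, adjusted p = 0.00561). The bound sets the 4T1-A mean against the lowest signal of any probe well above background on each 4T1-S array. Because this probe entered the test only through 4T1-A, some difference had to be there. The call was lost with normexp background correction (adjusted p = 0.308) and when no filter on dim probes was set (adjusted p = 0.0792).

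The other Dsc2 probes were too dim to test. A_52_P157158 had 0.0529 and 0.0824 in 4T1-S, against 0.0389 and 0.0546 in 4T1-A, and was well above background on 1 array of 4T1-S only. A_52_P252931 had 0.0167 and 0.0128 in 4T1-S, against 0.0123 and 0.0134 in 4T1-A, and was well above background on none of the arrays. All 3 probes are linked to the same RefSeq transcript, and why they differ was not tested.

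The plakophilins, which link the cadherin tails to desmoplakin, all measured modestly lower in 4T1-S, and none of the 3 passed. Pkp3, the plakophilin found in most simple and stratified epithelia, had 11.3 and 10.8 in 4T1-S, against 16.3 and 18.4 in 4T1-A. The sub-lines did not overlap, and the replicates differed by 0.06 on the log2 scale in 4T1-S and 0.18 in 4T1-A. The difference was -0.64 ± 0.19 (SE, n = 2 each; limma, adjusted p = 0.0999). Pkp1, best known from stratified epithelia, had 2.42 and 2.25 in 4T1-S, against 3.47 and 3.34 in 4T1-A. Its difference was -0.54 ± 0.19 (adjusted p = 0.133), again without overlap. Pkp2, the plakophilin of heart muscle and simple epithelia, had 4.28 and 4.56 in 4T1-S, against 5.69 and 6.24 in 4T1-A. Its difference was -0.43 ± 0.19 (adjusted p = 0.206), without overlap.

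All 3 plakophilin differences were larger than the gaps between replicates, which reached 0.10 in 4T1-S and 0.18 in 4T1-A. With scaling to the array median, which moved the median difference of all probes from 0.11 to -0.18, Pkp3 and Pkp1 passed (differences -0.94 and -0.84, limma adjusted p = 0.0392 and 0.0472). With normexp background correction Pkp3 passed (-0.74, adjusted p = 0.0447). With the replicate number as a block Pkp3 and Pkp1 passed (limma, adjusted p = 0.0337 and 0.0480). Pkp2 passed under none of the alternatives.

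Jup, the plaque protein that desmosomes share with adherens junctions, did not pass. It had 0.225 and 0.189 in 4T1-S, against 0.209 and 0.197 in 4T1-A, and the arrays overlapped. The difference was 0.02 with a 95% interval of -0.44 to 0.48 (limma, adjusted p = 0.961), and it was -0.27 with scaling to the array median. Of the genes whose promoters are shown above, Jup thus measured 0.02 and the brightest Dsp probe -0.78, and neither passed.

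**Figure D2:**
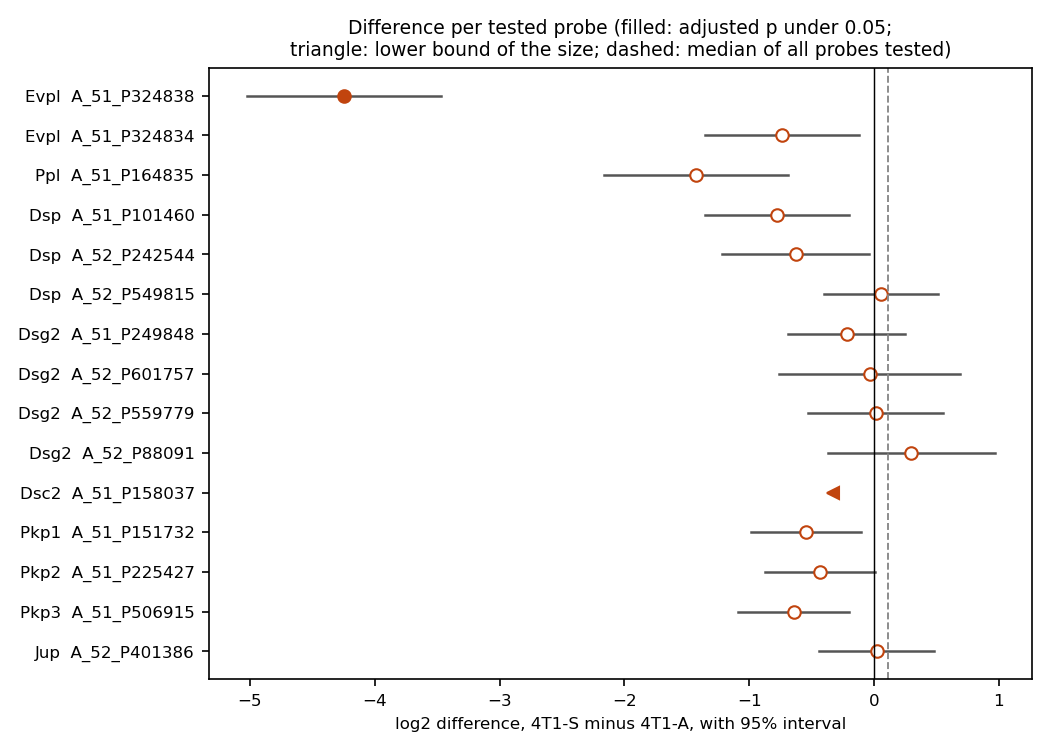
Log2 difference, 4T1-S minus 4T1-A, of the 15 tested probes of the 9 genes, with bars for the 95% interval; filled symbols passed at an adjusted p under 0.05, open ones did not, the triangle marks a lower bound of the size, and the dashed line is the median of all tested probes, 0.11. Evpl probe A_51_P324838 at -4.25 and Dsc2 probe A_51_P158037 are filled, and the Dsc2 probe is drawn at its bound of 1.25-fold because it was above background in 4T1-A only.

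Over the whole set, 15 of the 20 probes were tested and 5 were too dim. Of the 15 tested, 2 were lower in 4T1-S (Evpl and Dsc2), 0 were higher and 13 did not pass; over all tested probes 4.58 percent were called, 2.37 percent lower and 2.21 percent higher. At an unadjusted p below 0.05, 8 of the 15 were lower and 0 were higher, against 7.92 percent lower and 17.5 percent higher of all tested probes. Of the 15, 11 measured lower in 4T1-S, against 39.2 percent of all tested probes. All tested probes were lower without overlap in 18.7 percent and higher without overlap in 37.8 percent. The median difference was -0.54 over the 15 probes, or -0.43 with the Dsc2 probe at its bound, and 0.11 over all. Because the genes were picked with earlier results of these data known, these shares and those that follow only describe the set. They are no independent test of it.

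Dropping probes that entered through only 1 sub-line left 14 probes of 8 genes that were well above background on all 4 arrays. Of these 1 was lower, 0 were higher and 13 did not pass, against 1.67 percent lower and 1.58 percent higher of the 20887 probes above background on all arrays. The 4T1-S arrays lay below the 4T1-A arrays without overlap on 9 of the 14, above them without overlap on 0, and overlapped with them on 5. Of all such probes 19.0 percent were lower without overlap and 34.0 percent were higher without overlap. Of the 14, 10 measured lower, against 41.2 percent, and 7 were lower at an unadjusted p below 0.05, against 7.22 percent. The median difference was -0.49 over the 14 and 0.08 over the 20887. Probes of 1 gene share their target and do not count as separate genes. With each gene represented by its brightest probe and the p-values still adjusted over all probes, 8 genes were tested, of which 1 was lower (Evpl), 7 did not pass, 7 measured lower and 1 measured higher. By the same adjustment 2.56 percent of 16155 genes were called lower and 2.46 percent higher. In the alternative fit on 1 probe per gene, with p-values adjusted over those genes, 2 of the 8 were lower (Evpl and Ppl), against 3.01 percent of all genes.

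**Figure D3:**
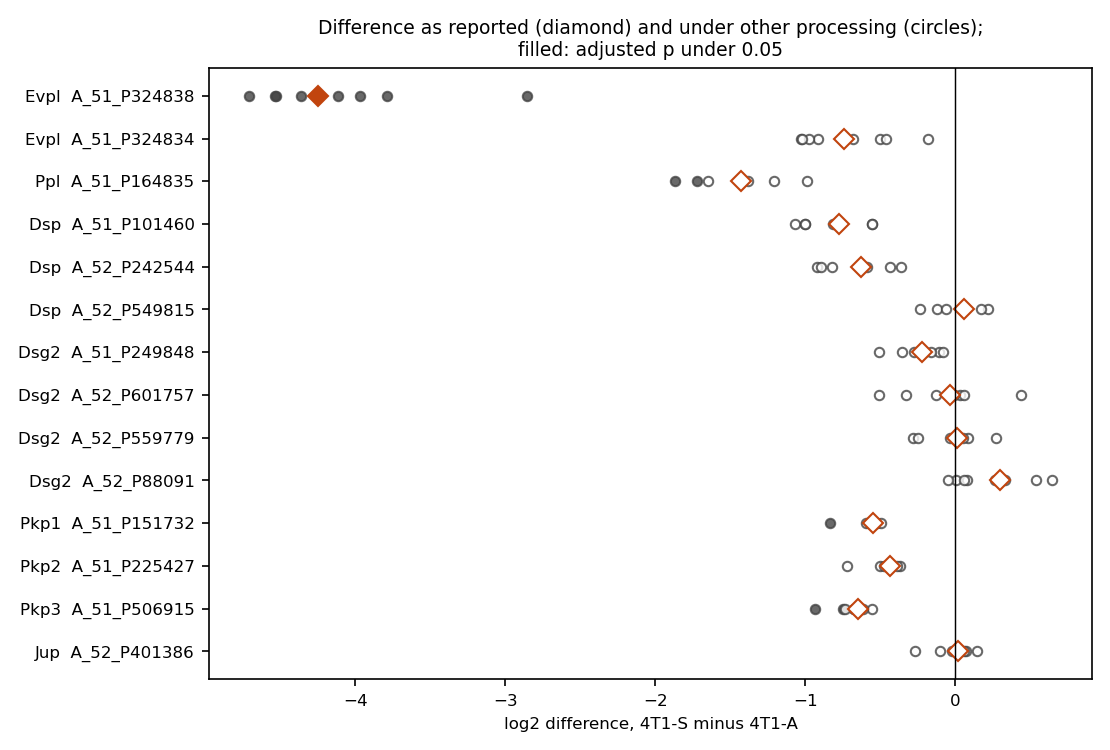
Log2 difference, 4T1-S minus 4T1-A, of each tested probe of the 9 genes other than the Dsc2 probe with only a bound, under the reported setting (diamond) and up to 13 alternatives (circles); filled symbols passed at an adjusted p under 0.05. Evpl probe A_51_P324838 stays filled throughout, between -4.71 and -2.86, Ppl probe A_51_P164835 changes between open and filled, and Jup and the dimmer Dsg2 probes lie on both sides of 0.

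Genes of neighbouring structures were set beside the 9, each by its brightest probe. The counts of each list below stand against 2.56 percent of 16155 genes called lower and 2.46 percent called higher on the same basis. Of the other desmosomal cadherins and plaque genes, 5 of 10 were tested and 0 passed in either direction, with a median difference of 0.62. The brightest, Perp, a desmosomal membrane protein, had 39.3 and 44.4 in 4T1-S, against 61.8 and 61.6 in 4T1-A, a difference of -0.56 ± 0.19 that did not pass (limma, adjusted p = 0.129). The rest of those tested measured higher in 4T1-S: Dsc3 at 0.87 (adjusted p = 0.0599), Dsg3 at 0.62, Pkp4 at 0.19 and Cdsn at 1.72. The sub-lines overlapped on Cdsn only. Dsc3 and Cdsn were well above background on 1 of the 4T1-A arrays. Of the other plakins and their partners, 4 of 5 were tested and 0 passed, with a median of 0.07. Plec (plectin, a linker of several filament systems) had 7.34 and 7.18 in 4T1-S, against 5.09 and 5.51 in 4T1-A, a difference of 0.46 ± 0.19 (adjusted p = 0.184).

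Hemidesmosomes fasten epithelial cells to the basement membrane and use plectin in place of desmoplakin. Of their genes 3 of 4 were tested, 1 was lower and 2 did not pass, with a median of -0.20. The lower one was Itgb4, the integrin subunit that defines hemidesmosomes, with 11.7 and 14.2 in 4T1-S, against 26.5 and 31.4 in 4T1-A. Its difference was -1.16 ± 0.21 (limma, adjusted p = 0.0244), which no longer passed when either 4T1-S array was left out (-1.02 with adjusted p = 0.124 for replicate 1, -1.30 with adjusted p = 0.0858 for replicate 2) or when no filter on dim probes was set (adjusted p = 0.102).

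Most cornified envelope genes were too dim to test. Of 14 genes 13 had a probe and 3 were tested, 0 of which passed, with a median of 0.59. Of the 3, 2 were above background in 4T1-S only, and with these at their bounds the median was 0.46. Scel (sciellin, a precursor of the envelope) was the one above background on all arrays, with 0.101 and 0.110 in 4T1-S, against 0.0834 and 0.0736 in 4T1-A. Its difference was 0.43 ± 0.19 (limma, adjusted p = 0.219).

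Keratins form the filaments that desmosomes hold. Of 11 keratin genes 8 were tested, 3 were lower, 0 were higher and 5 did not pass, with a median of -0.19. Krt19, a keratin of simple epithelia, had 0.709 and 1.02 in 4T1-S, against 4.13 and 6.58 in 4T1-A, a difference of -2.61 ± 0.29 (limma, adjusted p = 0.00268). Krt14, a keratin of basal cells, had 1.91 and 2.23 in 4T1-S, against 8.06 and 9.18 in 4T1-A, a difference of -2.06 ± 0.20 (adjusted p = 0.00148). The remaining fall was Krt17, at -1.57 ± 0.25 (adjusted p = 0.0164), which no longer passed when 4T1-S replicate 1 (0.0812) or replicate 2 (0.0873) was left out. The main simple-epithelial keratins Krt8, Krt18 and Krt7 did not pass, with differences of -0.19, -0.14 and -0.20. Krt16 and the dim Krt5 measured higher in 4T1-S without overlap, at 0.72 and 0.52. Neither of them passed (limma, adjusted p = 0.0980 and 0.169). With no filter on dim probes, Krt19 (adjusted p = 0.0606) and Krt17 (0.105) did not pass, and Krt17 also missed with normexp background correction (0.0681).

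Of the adherens junction genes 5 of 5 were tested, 1 was lower and 4 did not pass, with a median of 0.09. The lower one was Cdh1 (E-cadherin, the cadherin of epithelial adherens junctions), with 2.13 and 2.30 in 4T1-S, against 4.72 and 4.81 in 4T1-A. Its difference was -1.11 ± 0.19 (limma, adjusted p = 0.0196), and leaving out 4T1-S replicate 1 (0.104) or replicate 2 (0.103), or setting no filter on dim probes (0.0814), ended the call.

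Transcription factors of epithelial junction genes and their repressors were read on the same arrays. Of 10 such activators and epithelial factors 9 had a probe and 7 were tested, of which 2 were lower and 5 did not pass, with a median of -0.34. Ovol2, a zinc finger factor that maintains epithelial identity, had 0.109 and 0.116 in 4T1-S, against 0.460 and 0.642 in 4T1-A, a difference of -2.27 ± 0.22 (limma, adjusted p = 0.00159). Its relative Ovol1 was well above background in 4T1-A only, and 4T1-S was lower by at least 1.58-fold (limma, adjusted p = 0.00263). The call ended with normexp background correction (adjusted p = 0.382). Because Ovol1 entered the test only through 4T1-A, some difference had to be there. Among the tested factors that did not pass, Klf5 and Grhl1 measured higher in 4T1-S, at 0.76 and 0.55. Grhl2, Elf3 and Klf4 measured lower, at -0.76, -0.34 and -0.14. Of the repressors of epithelial genes 5 of 5 were tested, 1 was lower and 4 did not pass. Zeb2 measured higher without overlap, at 0.64 ± 0.19 (limma, adjusted p = 0.0995). Snai1 measured 0.17 and Twist1 -0.35. Snai2 was well above background in 4T1-A only, and no bound can be given for it. The lower one, Zeb1, had 0.0373 and 0.0119 in 4T1-S, neither well above background, against 0.105 and 0.0991 in 4T1-A. Zeb1 too entered the test only through 4T1-A, so some difference had to be there. In 4T1-S it was lower by at least 1.78-fold (adjusted p = 0.0392), and the call ended when 4T1-S replicate 2 was left out (adjusted p = 0.0524) and under normexp background correction (adjusted p = 0.189) or with no filter on dim probes (adjusted p = 0.151).

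**Figure D4:**
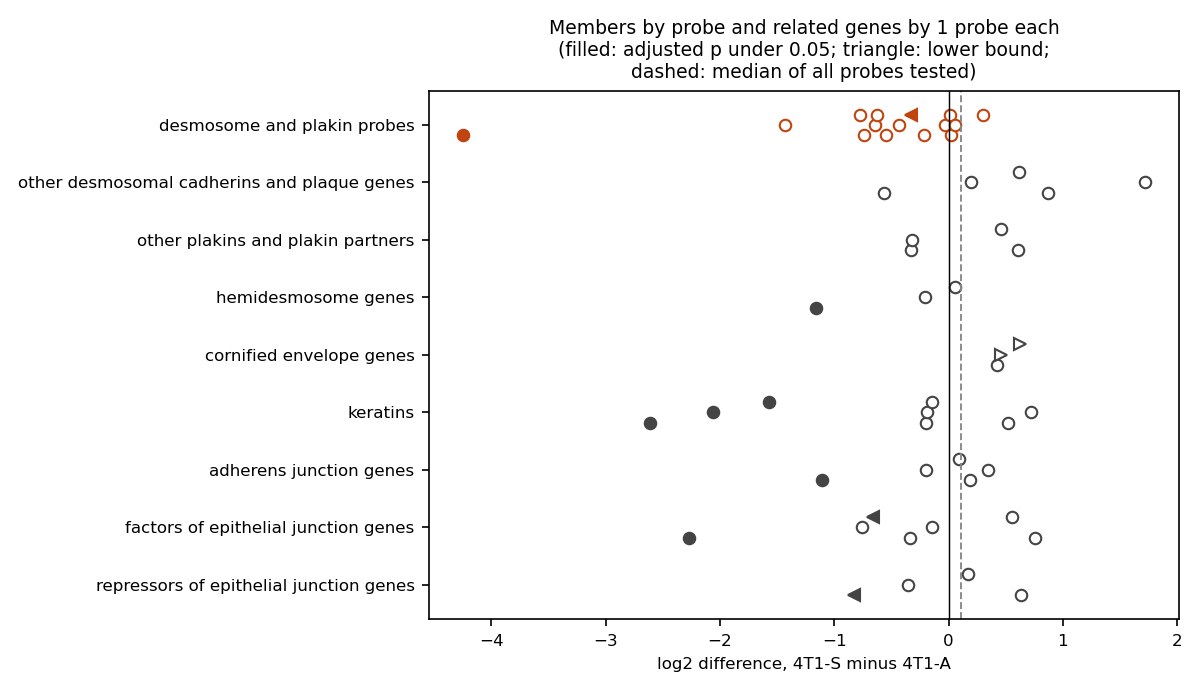
Log2 difference, 4T1-S minus 4T1-A, of the tested probes of the 9 genes and of the related genes, 1 probe per related gene, by list; filled symbols passed at an adjusted p under 0.05, triangles mark lower bounds of the size, the dashed line is the median of all tested probes, 0.11, and the repressor Snai2, which has no bound, is not drawn. The 8 filled symbols of the related lists are below 0 under the reported setting, among them Krt19 at -2.61, Krt14 at -2.06, Ovol2 at -2.27, Itgb4 at -1.16 and Cdh1 at -1.11. Ovol1 and Zeb1, also filled, entered the test only through 4T1-A and are drawn at their bounds. Of all genes by brightest probe, 2.56 percent were called lower and 2.46 percent higher.

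Of the 6 mammary epithelial markers 3 were lower in 4T1-S (Epcam, Krt19 and Cdh1) and 3 did not pass, against 2.56 percent of all genes called lower by brightest probe. Epcam had 0.181 and 0.177 in 4T1-S, against 2.12 and 2.86 in 4T1-A, a difference of -3.78 ± 0.22 (limma, adjusted p = 1.22e-04). Fibroblast markers had a summed scaled intensity of 1.19 and 1.18 in 4T1-S and 0.544 and 0.803 in 4T1-A. Of the 7, 1 (Pdgfra) was well above background on all arrays and 2 on none. Pdgfra made up most of the sum, with 0.780 and 0.758 in 4T1-S, against 0.324 and 0.529 in 4T1-A. Its difference of 0.89 ± 0.26 did not pass (limma, adjusted p = 0.0957). Col1a1 was higher in 4T1-S by at least 2.59-fold (limma, adjusted p = 0.00777). Because Col1a1 entered the test only through 4T1-S, some difference had to be there. Leukocyte markers summed to 0.940 and 0.971 in 4T1-S and 0.982 and 1.08 in 4T1-A, with 5 of 8 above background on all arrays and 0 called. Endothelial markers summed to 0.210 and 0.159 in 4T1-S and 0.100 and 0.103 in 4T1-A, with 0 of 4 tested and 3 above background on none of the arrays. The part of any of these in the Evpl, Ppl and Dsc2 values was not tested.

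The genes whose 4 array values lay nearest to those of Evpl probe A_51_P324838 were found by the Euclidean distance between log2 values centred on each gene's own mean, over 14183 genes above background on all 4 arrays. Mid2, a microtubule-associated ubiquitin ligase, was nearest at a distance of 0.393, with 0.132 and 0.198 in 4T1-S, against 2.33 and 2.86 in 4T1-A. Nipal2, a member of the NIPA-like family of membrane proteins, was at 0.578, with 0.0776 and 0.104 in 4T1-S, against 2.07 and 2.31 in 4T1-A. Rab19, a small GTPase of the Rab family, was at 0.602, with 0.0691 and 0.0798 in 4T1-S, against 1.04 and 1.29 in 4T1-A. With 4 arrays in 2 sub-lines, nearness says little more than that each was lower in 4T1-S by a like amount, 24.4-fold for Nipal2 and 15.6-fold for Rab19.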

How the data were processed

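Cy3-labelled RNA of 4T1-S and 4T1-A was measured on 2 arrays each. The deposited intensity values come from Agilent Feature Extraction 9.1, per the submitters' processing notes, and are background-subtracted and detrended, per the file headers. A linear ratio to the 75th percentile of each array makes up the deposited table, as found from its values, and served as an alternative. Here the processed intensity was divided by its array's 75th percentile and log2 was taken. Control spots, 5 to 9 outlier-flagged spots per array and 22 probes that these left incomplete were left out.

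Probes that exceeded background clearly on both arrays of either sub-line were fitted in limma 3.58.1 (lmFit, eBayes, 2-sided test, 2 residual and 5.49 prior degrees of freedom, Benjamini-Hochberg over 23669 probes, threshold 0.05) in R 4.3.3. The procedure was tested on simulated data for whether it returned known differences. The noise was drawn independently for each array, so that test does not cover deviations that arrays share. Of all probes, 22951 were named by accession, 9768 by symbol through a GRCm38.p6 table, and 8455 were left as the files name them. No genome build is named in the array files. Spread between arrays does not enter the lower bound of a fold.

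The members and lists were chosen with earlier results of these data known. All members were named, and of each list up to 2 rises and 2 falls or else its brightest gene, plus the 3 nearest profiles to Evpl. Krt17, Krt5, Krt16, Krt7, Krt8, Krt18, Snai2 and the markers Epcam and Col1a1 were named outside this rule, after their values were seen. So were Klf4, Klf5, Grhl1, Grhl2, Elf3, Zeb2, Snai1 and Twist1, and Dsc3, Dsg3, Pkp4, Cdsn and the marker Pdgfra. Alternatives were normexp background correction (offset 50), quantile and median scaling, other filters, 1 probe per gene, an intensity trend, a replicate block, the deposited ratio (plus 0.01) and leaving out each array.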

Additional observations from a re-analysis of the deposited data

How the results depend on the processing

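Of the probes of the 9 genes 2 were called, against 5 with scaling to the array median, 7 with the replicate block, 1 with no filter on background and 1 with only probes above background on all 4 arrays; leaving out 1 array gave between 2 and 3. Over all probes 1085 were called, and the count was 539 with normexp background correction, 302 with no filter, 584 with probes above background on all arrays and 4672 with the replicate block, and between 419 (without 4T1-S replicate 2) and 1970 (without 4T1-A replicate 2) when 1 array was left out, with 579 without 4T1-S replicate 1. Of the 1085 calls 523 were higher and 562 lower in 4T1-S; scaling to the array median gave 224 higher and 1162 lower, against 312 and 590 with quantile normalization, 647 and 487 with 1 probe per gene and 3008 and 1664 with the replicate block. Related genes had 8 calls, 0 higher and 8 lower, against 3 lower with no filter, 20 (10 higher and 10 lower) with the replicate block, 2 higher and 9 lower with 1 probe per gene, 1 higher and 8 lower with an intensity trend, and between 4 and 9 without 1 array, of which 1 was higher without 4T1-A replicate 2. The cause of these shifts was not tested.

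The replicate numbers pair the arrays by number only. Across probes, same-numbered arrays deviated together from their sub-line means with a correlation of 0.443. With 2 arrays per sub-line both pairs must give the same value, so this is 1 comparison. The labels give the number no meaning, so the block was not used. The following uncalled differences changed sign. With scaling to the array median Jup was -0.27, Dsg2 A_52_P559779 -0.28 and Dsp A_52_P549815 -0.23, which was -0.12 with quantile normalization, and Dsg2 A_52_P601757 was 0.032 with normexp. Leaving out 1 array gave between -0.10 and 0.15 for Jup, -0.25 and 0.27 for Dsg2 A_52_P559779, -0.51 and 0.44 for Dsg2 A_52_P601757, -0.049 and 0.65 for Dsg2 A_52_P88091, and -0.060 and 0.17 for Dsp A_52_P549815. Signal near background limits Dsc2, for which only a bound can be given.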
